A study of Mus musculus with 9 samples.

Results

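The genes described here are 41 mouse genes that encode writers and erasers of histone lysine methylation, with the core subunits of Polycomb repressive complex 2 (PRC2). They were chosen by name from what their products do, leaving out the KDM7 family to which Phf2 itself belongs, and each of the 41 symbols matched 1 Ensembl gene among the 54232 in the deposited table. All 41 passed the filter on low counts that left 17602 genes, with between 147 and 12696 estimated counts in any library. RNA-seq compared primary mouse embryonic neural stem cells given a short hairpin RNA against Phf2, either sh900 or sh902, with the same cells given a non-targeting hairpin, shNT. A short hairpin RNA is cut in the cell into a small RNA that lowers the transcript it matches. The cells were labelled as coming from the subventricular zone of the brain, were cultured on a laminin coat in medium with FGF and EGF, and were harvested 3 days after the hairpin was given. Each of the 3 groups held 3 libraries, of which 1 carried no date, 1 carried 30 August and 1 carried 3 September in its title. Strain, sex and age of the source animals, the way the hairpins were delivered and the share of cells that took them up are not given in the labels. Whether the libraries of a group stem from independent cultures or animals is not stated, and the p-values therefore reflect library-to-library spread that may be technical. In bulk RNA, fewer cells of a kind and less RNA per cell cannot be told apart.

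Histone lysine methylation is set by methyltransferases, most of which carry a SET domain, and removed by demethylases that use either FAD (the KDM1 enzymes) or iron and 2-oxoglutarate (the JmjC enzymes). Methylation of H3K9 and H3K27 and trimethylation of H4K20 are found mostly in repressed chromatin, and methylation of H3K4, H3K36 and H3K79 mostly in transcribed genes. PHF2 is a JmjC protein that reads methylated H3K4 and is known as an H3K9 demethylase. In neural stem cells, PRC2 and the H3K4 demethylase LSD1 (KDM1A) are known to take part in self-renewal and in the timing of neuron and glia production.

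Phf2 stood at 19.8, 14.9 and 25.5 CPM (counts scaled to library size with TMM factors) in the undated, 30 August and 3 September sh900 libraries, at 25.0, 17.0 and 28.1 CPM with sh902, and at 56.3, 52.8 and 48.7 CPM with shNT. In edgeR's fit Phf2 was at -1.32 ± 0.16 on the log2 scale for the mean of both hairpins with a term for the date label in the model (SE, adjusted p = 0.00519) and at -1.28 ± 0.20 without it (SE, adjusted p = 0.182). All 6 hairpin libraries lay below all 3 controls, with 28.3% to 57.7% of the control of the same label left (two-sided exact permutation test over 84 splits, p = 0.0119). That p is the smallest this test can give. The splits took the 9 libraries as exchangeable and did not allow for shared date labels. Library totals ran from 23212472 to 32392496 estimated counts. The shNT libraries differed from one another in proliferation genes more than the hairpin libraries did: the proliferation marker Mki67 had levels of 413, 194 and 326 CPM with sh900, at 523, 299 and 455 CPM with sh902, and at 291, 869 and 60.1 CPM with shNT. Of 10 neural stem and progenitor markers all passed the filter. Their summed level was 7570 to 13300 CPM with sh900, 6360 to 9650 CPM with sh902 and 5140 to 7410 CPM with shNT, and by the mean of both hairpins with the date label in the model Nes and Vim were higher and Prom1, Hes5 and Pax6 lower. Neuronal markers (5 of 6 past the filter) summed to 611 to 1080 CPM with sh900, 468 to 855 CPM with sh902 and 683 to 1900 CPM with shNT, and 4 were lower. Astrocyte markers (5 of 5) summed to 1480 to 3470 CPM with sh900, 1030 to 2750 CPM with sh902 and 1560 to 5670 CPM with shNT, and 1 was lower. Oligodendrocyte markers (2 of 5, both lower) summed to at most 27.1 CPM with sh900, 16.2 CPM with sh902 and 128 CPM with shNT. Fibroblast and mural markers (5 of 5, 1 lower), endothelial markers (1 of 4, lower) and microglial markers (1 of 5, not called) summed to at most 8.22 CPM with sh900, 5.43 CPM with sh902 and 11.4 CPM with shNT in any library. The 22 mitosis genes gave 0 calls in either direction. No marker of these lists was at 0 in all 9 libraries. The marker calls (adjusted p under 0.05) were made with the date label in the model, where edgeR called 11.7% of all genes tested, 6.08% higher and 5.59% lower. Without the date label edgeR called 0% of all genes, and so no marker. Some markers thus differed between the groups compared below, by calls that depend on the date label term. The part of the markers in the results on the 41 genes was not tested.

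All 41 genes were expressed in every library, and their level per length spanned a wide range. Levels are given in RPKM (counts scaled to library size and length, over the summed exon length of a gene). The highest means over the 9 libraries were 46.9 for Ehmt2, an H3K9 methyltransferase of the EHMT pair, and 45.4 for Kdm5c, an X-linked H3K4 demethylase. Kdm4a followed at 25.2 RPKM and Kdm1a at 24.3 RPKM. The lowest means were 0.988 RPKM for Setd1b, 1.15 RPKM for Smyd3, 2.15 RPKM for Ezh1 and 2.19 RPKM for Setdb2. Between the lowest and highest of the 9 libraries the CPM of a gene differed by 1.35-fold for Kmt2d, an H3K4 methyltransferase of enhancers, at the least, by 3.30-fold for Suv39h2, and by 3.57-fold for Ezh1 at the most. No gene of the 41 was at 0 in any library.

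The first comparison asked which of these genes differ when Phf2 is lowered, taking the mean of both hairpins against shNT. The answer depended on whether the model held a term for the date label of the titles. Without that term edgeR's quasi-likelihood test called 0 of the 41 genes and 0% of all genes tested, where a call means a Benjamini-Hochberg adjusted p under 0.05 over all 17602 genes. In that fit 5 of the 41 (12.2%) had an unadjusted p under 0.05, against 16% of all genes, and DESeq2 and limma-voom without the term called 0 of the 41 as well. With the label term edgeR called 3 of the 41 (7.32%), against 11.7% of all genes tested: Dot1l and Kmt5a were higher, as were 6.08% of all genes, and Kdm4b was lower, as were 5.59%. The count was 8 without the shNT library of 30 August (19.5%, against 19.9% of all genes), 4 without the sh902 library of that label (9.76%, against 13.6%), 1 without the sh900 library of that label (2.44%, against 5.48%), and 0 without any 1 of the other 6 libraries. The share called was thus not above that of the whole table in these edgeR fits, and the difference in share was not tested. The median log2 fold change of the 41 was -0.156, against -0.02 over all genes, and 29 of the 41 were negative. The fit without the label term was the main one, and the fit with it the first alternative. Values from that alternative, with the label term, are given below unless the other fit is named, and the calls described depend on it.

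**Figure D1:**
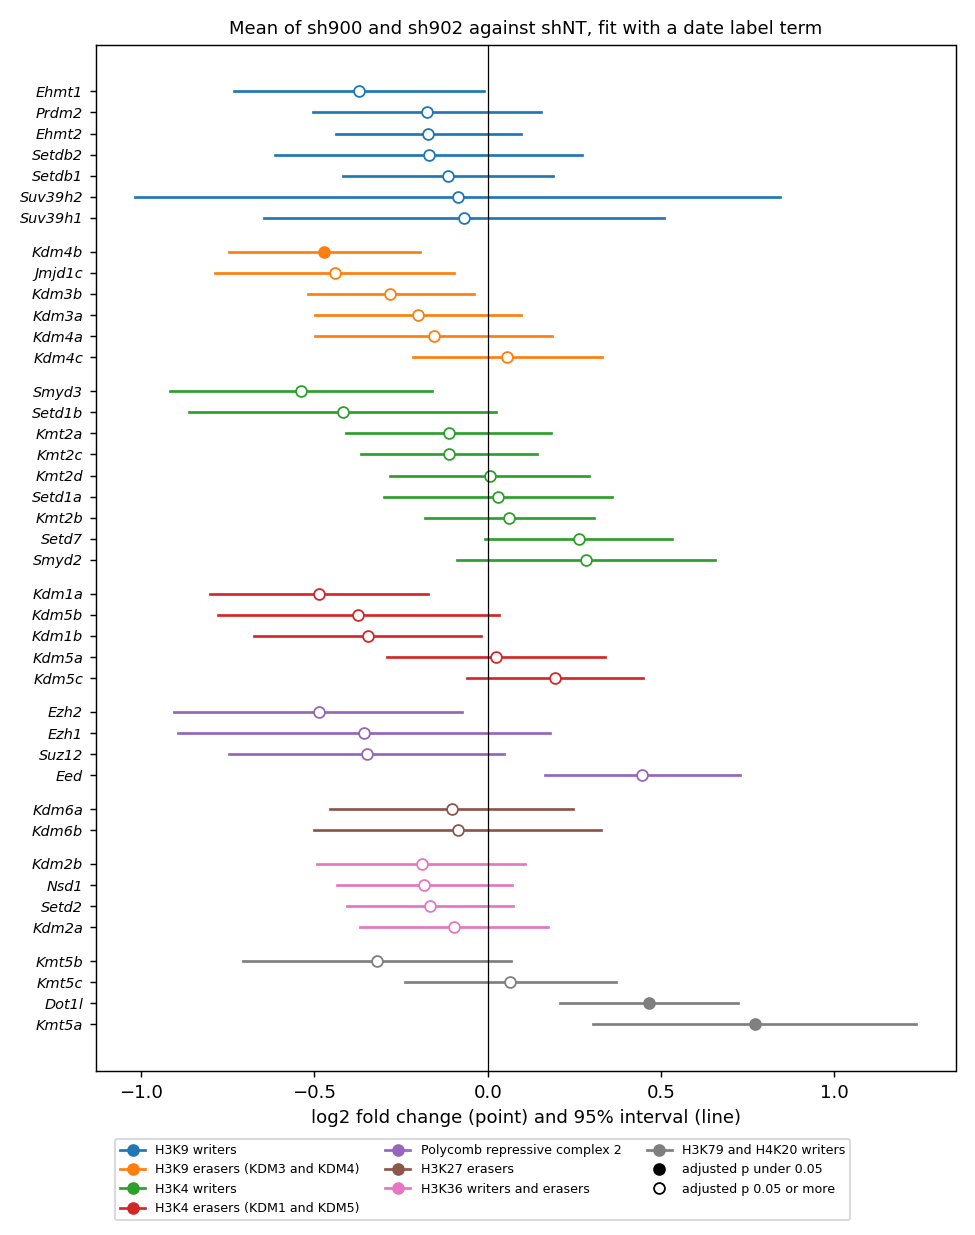
Log2 fold change of the 41 genes for the mean of sh900 and sh902 against shNT (x axis, log2 units) in the edgeR fit with a date label term, with genes down the page by role group. Points are estimates, lines are 95% intervals, and filled points have an adjusted p under 0.05: Kdm4b lies at -0.47, Dot1l at 0.47 and Kmt5a at 0.77, and the other 38 points are open.

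Dot1l and Kmt5a, both outside the H3K9 and H3K27 systems, were the genes called higher in the mean of both hairpins. By single hairpins Dot1l passed with sh900 and not with sh902 (adjusted p = 0.0724), and Kmt5a with neither (adjusted p = 0.0653 with sh900 and 0.0772 with sh902). DOT1L is the H3K79 methyltransferase and lacks a SET domain. Dot1l (chromosome 10, 80755206 to 80795461 on GRCm38) stood at 138 CPM in the undated sh900 library, 149 CPM in that of 30 August and 93.0 CPM in that of 3 September, at 113, 153 and 91.6 CPM with sh902, and at 83.4, 109 and 72.6 CPM with shNT. Each hairpin library lay above the control of its own label, by 0.33 to 0.73 on the log2 scale. The groups overlapped, and in each of them the 30 August library was the highest and the 3 September library the lowest. The mean log2 fold change was 0.47 ± 0.11 (SE, adjusted p = 0.0351), a 1.38-fold difference, and without the label term it was 0.48 ± 0.23 (SE, adjusted p = 0.34).

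KMT5A places the first methyl group on H4K20 and is known for its role in mitosis and S phase. Kmt5a (chromosome 5, 124439930 to 124462308) stood at 120.1, 128 and 69.5 CPM with sh900, at 113, 103 and 78.9 CPM with sh902, and at 45.6, 97.2 and 43.1 CPM with shNT. The 30 August control stood well above the other 2 controls, and against it the log2 ratio was 0.40 for the sh900 library and 0.08 for the sh902 library, compared with 0.69 to 1.40 at the other labels. The mean log2 fold change was 0.77 ± 0.20 (SE, adjusted p = 0.0472) and 0.72 ± 0.32 (SE, adjusted p = 0.316) without the label term. Leaving out the 30 August control gave the largest value for Kmt5a among the leave-one-out fits, 1.07. The H4K20 di- and trimethylating enzymes Kmt5b and Kmt5c did not pass, at -0.32 (95% interval -0.71 to 0.07) and 0.07 (-0.24 to 0.37).

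Eed, the PRC2 subunit that binds trimethylated H3K27 and holds the complex together, showed the same arrangement of libraries. Eed (chromosome 7, 89954654 to 89980983) stood at 51.4, 69.7 and 34.1 CPM with sh900, at 42.0, 51.2 and 34.1 CPM with sh902, and at 30.7, 47.3 and 25.9 CPM with shNT. It was above the same-label control in 6 of 6 hairpin libraries, by 0.11 to 0.74. The mean of both hairpins was 0.45 ± 0.12 (SE, adjusted p = 0.0523), and sh900 alone was 0.57 ± 0.14 (SE, adjusted p = 0.0434). The sh900 calls of Eed and of Dot1l, at 0.51 ± 0.13 (SE, adjusted p = 0.0453), held in the leave-one-out fits without the sh902 or the shNT library of 30 August and were lost in the other 7. Eed, Dot1l and Kmt5a were the 3 of the 41 genes (7.32%) above the same-label control in all 6 hairpin libraries, against 12.8% of all genes. Their promoters are shown as a description of the 3 genes picked by this count, whose share was below that of all genes. Whether the 3 genes share any control was not tested. The sequences run from 250 bases before to 50 bases after the start of transcription, from RefSeq on GRCm38.p6, 5′ to 3′ on the strand of the gene. Capitals mark the letters of 3 motifs on either strand: the GC box GGGCGG, the CCAAT box CCAAT and the cell cycle genes homology region TTTGAA.
Eed, chr7:89980927-89981226, minus strand: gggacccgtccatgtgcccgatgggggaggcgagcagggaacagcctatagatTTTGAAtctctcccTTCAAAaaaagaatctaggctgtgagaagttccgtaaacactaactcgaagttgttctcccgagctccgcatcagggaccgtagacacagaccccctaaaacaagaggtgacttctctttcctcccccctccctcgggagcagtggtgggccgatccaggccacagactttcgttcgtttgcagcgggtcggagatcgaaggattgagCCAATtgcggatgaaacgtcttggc
Dot1l, chr10:80754953-80755252, plus strand: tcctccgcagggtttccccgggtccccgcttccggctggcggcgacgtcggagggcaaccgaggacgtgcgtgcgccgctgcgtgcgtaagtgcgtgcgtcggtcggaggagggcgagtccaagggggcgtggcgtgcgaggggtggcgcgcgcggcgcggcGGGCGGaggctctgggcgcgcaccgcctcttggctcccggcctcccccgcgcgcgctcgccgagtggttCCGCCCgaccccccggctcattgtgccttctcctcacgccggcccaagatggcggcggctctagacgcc
Kmt5a, chr5:124439680-124439979, plus strand: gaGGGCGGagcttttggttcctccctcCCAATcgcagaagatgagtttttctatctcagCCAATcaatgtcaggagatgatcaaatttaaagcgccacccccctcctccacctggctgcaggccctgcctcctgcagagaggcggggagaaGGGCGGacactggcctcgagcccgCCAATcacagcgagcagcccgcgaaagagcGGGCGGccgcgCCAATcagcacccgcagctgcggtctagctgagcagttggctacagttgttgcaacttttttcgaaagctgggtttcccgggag
The Eed window held 1 CCAAT box and 2 matches to TTTGAA, the Dot1l window 2 GC boxes, and the Kmt5a window 3 GC boxes and 4 CCAAT boxes. No motif of the 3 was found in all 3 windows. Over all 32851 promoter windows of the same length, 35.7% held a GC box, 37.4% a CCAAT box and 17.9% the letters TTTGAA. The windows held 17, 49 and 18 CpG dinucleotides for Eed, Dot1l and Kmt5a, against a median of 7 over all windows, and 68.6% of all windows held fewer than the 17 of Eed. Of the 41 genes 31 had a promoter entry. A match of letters describes the window and is no evidence that a factor binds there.

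Kdm4b was the gene called lower in the fit with the label term. KDM4B removes tri- and dimethylation from H3K9, and it was the 1 of the 6 KDM3 and KDM4 erasers to pass in the mean of both hairpins. Kdm4b (chromosome 17, 56326062 to 56402870) stood at 63.4, 43.7 and 70.1 CPM with sh900, at 52.1, 40.5 and 62.2 CPM with sh902, and at 90.9, 47.5 and 97.3 CPM with shNT. All 6 hairpin libraries lay below the control of their own label, by 0.12 and 0.23 at 30 August and by 0.47 to 0.80 at the other labels, and the 30 August control overlapped both hairpin groups. The mean log2 fold change was -0.47 ± 0.12 (SE, adjusted p = 0.0425), and -0.51 ± 0.26 (SE, adjusted p = 0.355) without the label term. With sh902 alone it was -0.56 ± 0.14 (SE, adjusted p = 0.0429), and with sh900 alone -0.38 ± 0.14 (SE, adjusted p = 0.132). The difference between the hairpins was -0.19 ± 0.14 (SE, adjusted p = 0.488), sh902 minus sh900, so the hairpins were not shown to differ. Each of the calls on Dot1l, Kmt5a and Kdm4b for the mean held in 2 of 9 leave-one-out fits, those without the sh902 or the shNT library of 30 August. Each was lost without any 1 of the other 7 libraries, with adjusted p up to 0.209.

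None of the other 5 KDM3 and KDM4 genes passed in the mean of both hairpins; 4 of their estimates were negative and 1, that of Kdm4c, positive. Jmjd1c, a KDM3 relative whose own demethylase activity is disputed, stood at 242, 300.1 and 301 CPM with sh900, at 219, 271 and 252 CPM with sh902, and at 366, 278 and 433 CPM with shNT. Its mean log2 fold change was -0.44 ± 0.15 (SE, adjusted p = 0.0953). Kdm3b, which removes mono- and dimethylation from H3K9, stood at 164, 142 and 168 CPM with sh900, at 139, 142 and 164 CPM with sh902, and at 199.5, 170.1 and 188 CPM with shNT. All 6 hairpin libraries of Kdm3b lay below all 3 controls, and the difference was small, at -0.28 ± 0.10 (SE, adjusted p = 0.119). Kdm3a was at -0.20, Kdm4a at -0.16 and Kdm4c at 0.06. Over the 6 erasers the median was -0.241, with 5 negative.

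**Figure D2:**
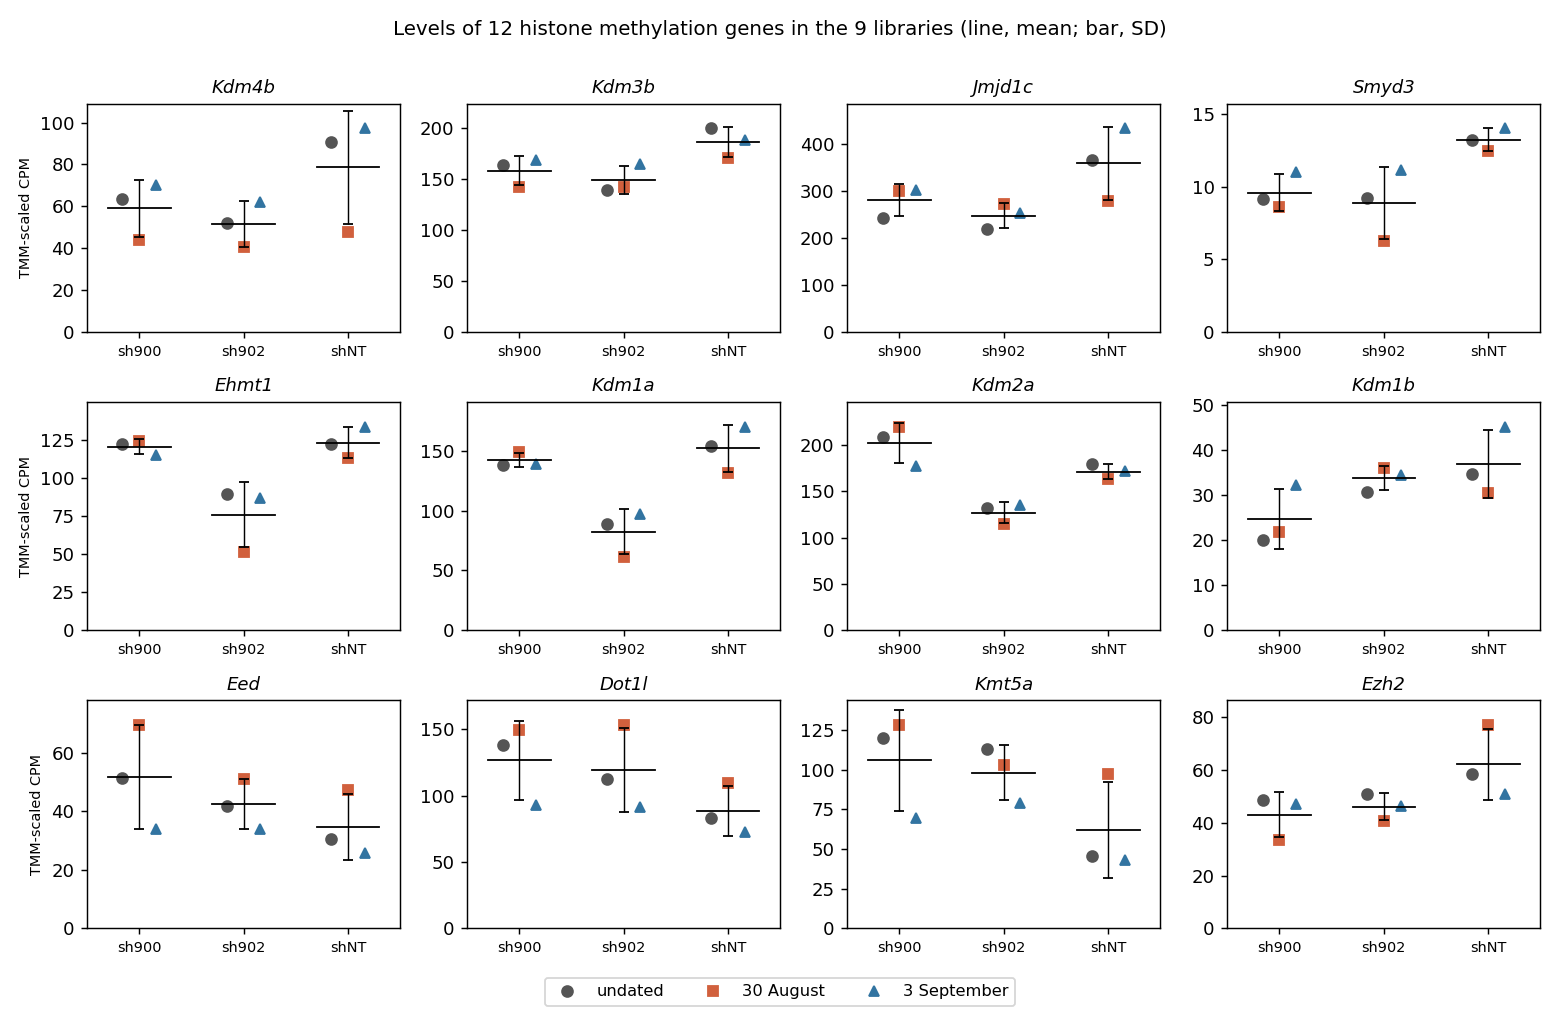
TMM-scaled CPM (y axis, from 0) of 12 genes in each of the 9 libraries, by hairpin group (x axis) with symbols for the date label, a line at the group mean and a bar for the SD (n = 3 each). Kdm1a and Ehmt1 are low with sh902 and not with sh900, while the 3 September library is the lowest of each group for Eed, Dot1l and Kmt5a.

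Among the H3K9 methyltransferases, which set the mark that PHF2 is known to remove, 0 of 7 passed in the mean of both hairpins, and all 7 estimates were negative. In edgeR's fit 1 of the 7, Ehmt1, had an unadjusted p under 0.05. Its estimate was -0.37 (95% interval -0.73 to -0.01, adjusted p = 0.16). The intervals were narrower for most: Ehmt2 was at -0.17 (95% interval -0.44 to 0.10), Setdb1, which silences retroelements, at -0.12 (-0.42 to 0.19), Prdm2 at -0.18 (-0.50 to 0.15) and Setdb2 at -0.17 (-0.61 to 0.27). They were wide for the enzymes of pericentric heterochromatin, at -0.07 (-0.65 to 0.51) for Suv39h1 and -0.09 (-1.02 to 0.84) for Suv39h2. Apart from that of Ehmt1, these intervals include 0 and reach further below it than above it. They leave room for lower levels down to the lower limits given.

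The direction of Suv39h1 and Suv39h2 turned between date labels. Suv39h2 stood at 16.5, 12.2 and 13.8 CPM with sh900, at 24.3, 15.3 and 19.9 CPM with sh902, and at 12.6, 34.4 and 10.4 CPM with shNT. The 30 August control was the highest of all 9 libraries, and the 3 September control the lowest. Suv39h1 stood at 58.0, 47.4 and 52.0 CPM with sh900, at 55.7, 34.1 and 53.8 CPM with sh902, and at 48.1, 73.0 and 37.2 CPM with shNT. Against the control of the same label Suv39h2 was thus 0.40 and 0.93 higher on the log2 scale at 3 September, and 1.49 and 1.17 lower at 30 August, for sh900 and sh902.

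None of the 9 H3K4 methyltransferases passed in the mean of both hairpins, with 5 estimates positive, 4 negative and a median of 0.006. Kmt2a to Kmt2d, the large enzymes of the MLL family, lay between -0.11 and 0.06. Setd1b, the sister enzyme of Setd1a, was at -0.42 (95% interval -0.86 to 0.03), and with sh902 alone at -0.71 ± 0.23 (SE, adjusted p = 0.0822), where all 3 libraries lay below shNT. Smyd3, a SET and MYND domain methyltransferase with both histone and cytoplasmic substrates, was the lowest estimate of all 41 genes. It stood at 9.13, 8.63 and 11.04 CPM with sh900, at 9.26, 6.28 and 11.2 CPM with sh902, and at 13.3, 12.5 and 14.0 CPM with shNT. All 6 hairpin libraries of Smyd3 lay below all controls, at -0.54 ± 0.16 (SE, adjusted p = 0.0708 with edgeR and 0.0366 with DESeq2, both with the label term). Smyd3 and Kdm3b were the 2 of the 41 (4.88%) whose hairpin libraries all lay below the controls, against 3.03% of all genes, and 0 of the 41 lay all above, against 3.37%. Without the 30 August control these counts were 11 below and 3 above, against 14.4% of all genes in each direction.

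None of the 4 PRC2 genes passed in the mean of both hairpins, with 3 estimates negative and that of Eed positive. Ezh2, its main catalytic subunit in dividing cells, stood at 48.7, 33.3 and 47.2 CPM with sh900, at 51.0, 40.8 and 46.5 CPM with sh902, and at 58.5, 77.1 and 50.8 CPM with shNT. It lay below the same-label control in 6 of 6 hairpin libraries, by 0.92 and 1.21 at 30 August and by 0.11 to 0.26 elsewhere, and its mean was -0.49 ± 0.18 (SE, adjusted p = 0.118). Without the 30 August control that estimate was -0.17. Suz12, the scaffold of PRC2, was at -0.35 ± 0.17 (SE, adjusted p = 0.221), opposite in sign to Eed. Per length, Ezh1, the catalytic subunit known from resting cells, reached 0.205, 0.192 and 0.349 of the Ezh2 level with sh900, 0.295, 0.315 and 0.362 of it with sh902, and 0.39, 0.103 and 0.411 of it with shNT. The lowest and the highest of these ratios were both controls. Ezh2 and Nsd1 belonged to the 6 of the 41 genes (14.6%) below the same-label control in all 6 hairpin libraries, with Ehmt2, Kdm3b, Kdm4b and Smyd3, against 12% of all genes. For Ehmt2 and Nsd1 this rested on near ties: Ehmt2 had 250.2 CPM with sh900 and 250.8 CPM with shNT at 30 August, and Nsd1 336.9 CPM with sh900 and 337.2 CPM with shNT in the undated libraries.

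No H3K27 or H3K36 gene outside PRC2 passed in the mean of both hairpins. The H3K27 demethylases Kdm6a and Kdm6b were at -0.10 (95% interval -0.45 to 0.25) and -0.09 (-0.50 to 0.33). Of the H3K36 genes, Setd2, which sets trimethylation in gene bodies, was at -0.17 (-0.41 to 0.07), Nsd1 at -0.18 (-0.44 to 0.07), and the demethylases Kdm2a and Kdm2b at -0.10 and -0.19. With sh902 alone all 4 H3K36 estimates were negative. None passed by edgeR with the label term: adjusted p was 0.0825 for Kdm2a, 0.169 for Setd2, 0.188 for Kdm2b and 0.275 for Nsd1. Setd2, Nsd1 and Kdm2a had every sh902 library below every control, as did 10.9% of all genes. Whether the H3K36 genes differed from all genes in this share was not tested. Kdm2a was at -0.43 with sh902 and 0.24 with sh900, which average to its small mean.

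The second comparison asked whether the hairpins differ from each other. In edgeR's fit with the label term Kdm1a and Kdm2a were called lower with sh902 than with sh900. Without the label term edgeR called 0 of the 41 and 0% of all genes for sh902 minus sh900, with 14 of the 41 (34.1%) at an unadjusted p under 0.05, against 14.4% of all genes, while limma-voom called 0 and DESeq2 called Kdm1a and Kdm2a. With the label term edgeR called the same 2 genes, both lower with sh902 (4.88%), against 4.22% of all genes, of which 2.48% were lower and 1.74% higher. The share called was near that of the whole table. Without the 30 August control 6 of the 41 (14.6%) were called, against 10.9% of all genes.

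Kdm1a encodes LSD1, which removes mono- and dimethylation from H3K4 in the CoREST complex. Kdm1a (chromosome 4, 136550540 to 136602723) stood at 89.2, 61.4 and 97.2 CPM with sh902, at 139, 149 and 139 CPM with sh900, and at 154, 132 and 171 CPM with shNT. Every sh902 library lay below every other library, and the sh900 and shNT libraries overlapped. The means were 82.6 ± 18.8 CPM with sh902, 142 ± 5.83 CPM with sh900 and 152 ± 19.4 CPM with shNT (SD, n = 3 each). The log2 fold change was -0.81 ± 0.16 for sh902 minus sh900 (SE, adjusted p = 0.0377) and -0.79 ± 0.19 without the label term (SE, adjusted p = 0.116). Against shNT it was -0.89 ± 0.16 with sh902 (SE, adjusted p = 0.017) and -0.08 ± 0.16 with sh900 (SE, adjusted p = 0.788). The call against sh900 held in 2 of 9 leave-one-out fits, those without the undated or the 30 August shNT library. The call against shNT held in 5 of 9, and was lost without the undated or the 3 September library of sh902 or of shNT (adjusted p up to 0.0842). Its relative Kdm1b, the other FAD-dependent demethylase, stood at 30.7, 35.97 and 34.4 CPM with sh902, at 19.9, 21.9 and 32.1 CPM with sh900, and at 34.6, 30.5 and 45.1 CPM with shNT, with 0.49 ± 0.17 for sh902 minus sh900 (SE, adjusted p = 0.136). Per length, Kdm1b reached 0.325, 0.552 and 0.334 of the Kdm1a level with sh902, against 0.135, 0.138 and 0.217 with sh900 and 0.211, 0.218 and 0.249 with shNT. The ratio was higher in each sh902 library than in any other library.

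Kdm2a, an H3K36 demethylase that binds CpG islands through its zinc finger, had a mean of 127 CPM with sh902, 202 CPM with sh900 and 171 CPM with shNT. Kdm2a (chromosome 19, 4314419 to 4398285) stood at 132, 114 and 135 CPM with sh902, at 208, 219.9 and 178 CPM with sh900, and at 179, 163 and 172 CPM with shNT. No sh902 library reached the lowest sh900 or shNT library, and the lowest sh900 library lay just under the highest control. The log2 fold change for sh902 minus sh900 was -0.67 ± 0.14 (SE, adjusted p = 0.0403), and -0.67 ± 0.14 (SE, adjusted p = 0.0857) without the label term. Against shNT, neither sh902 at -0.43 ± 0.14 (SE, adjusted p = 0.0825) nor sh900 at 0.24 ± 0.14 (SE, adjusted p = 0.301) passed. The call held in 1 of 9 leave-one-out fits, the one without the shNT library of 30 August.

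Ehmt1, the partner of Ehmt2 in the complex that sets mono- and dimethylation of H3K9, had a like pattern. Ehmt1 (chromosome 2, 24789928 to 24919614) stood at 89.5, 51.1 and 86.7 CPM with sh902, at 122, 125 and 115 CPM with sh900, and at 123, 113 and 134 CPM with shNT. All sh902 libraries lay below all others. Against shNT sh902 was at -0.72 ± 0.18 (SE, adjusted p = 0.0446) and sh900 at -0.02 ± 0.18 (SE, adjusted p = 0.962), and the difference between the hairpins was -0.71 ± 0.19 (SE, adjusted p = 0.0727). The call of Ehmt1 held in 0 of 9 leave-one-out fits, where adjusted p ran from 0.0527 to 0.118. Ehmt2 stayed at -0.06 between the hairpins, and per length Ehmt1 reached 0.24, 0.174 and 0.21 of the Ehmt2 level with sh902, against 0.32, 0.337 and 0.318 with sh900 and 0.284, 0.305 and 0.309 with shNT.

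**Figure D3:**
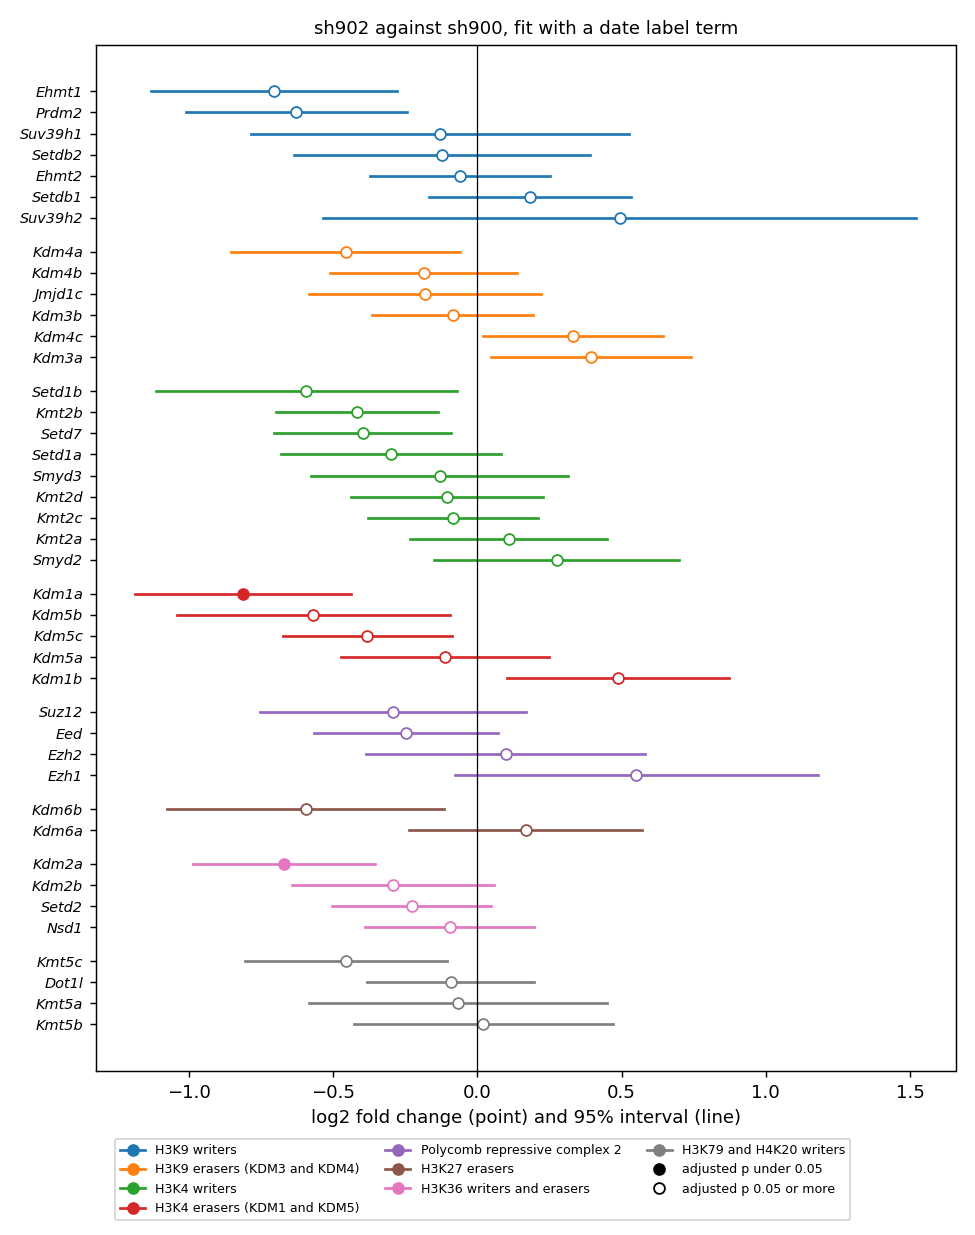
Log2 fold change of the 41 genes for sh902 against sh900 (x axis, log2 units) in the edgeR fit with a date label term, with genes down the page by role group, points for estimates and lines for 95% intervals. Kdm1a at -0.81 and Kdm2a at -0.67 are filled (adjusted p under 0.05), and 30 of the 41 estimates are negative.

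More of the 41 genes were low with sh902 than passed the test. Each library of sh902 lay below each library of sh900 for 13 of the 41 (31.7%), against 11.3% of all genes, and above for 3 (7.32%), against 11.2%. The 13 were Ehmt1, Prdm2, Kdm4a, Kmt2b, Setd1b, Kdm1a, Kdm5b, Kdm5c, Suz12, Kdm6b, Setd2, Kdm2a and Kmt5c, and the 3 were Setdb1, Kdm3a and Kdm4c. Against shNT, sh902 lay fully below for 12 (29.3%), compared with 10.9% of all genes, and fully above for 0, compared with 10.6%. With sh900 these counts were 3 below (Kdm3b, Smyd3 and Ezh2), against 8.82% of all genes, and 3 above (Setd7, Kdm5c and Kmt5c), against 8.58%. By the test with the label term, sh902 minus shNT had 3 of 41 lower (Kdm4b, Ehmt1 and Kdm1a; 7.32% against 10.5% of all genes called, 5.39% lower and 5.12% higher), and sh900 minus shNT had 2 higher (Eed and Dot1l; 4.88% against 8.85%, of which 5.39% higher and 3.45% lower). Without the 30 August control these calls numbered 7 for sh902 (17.1%, against 20.6% of all genes) and 9 for sh900 (22%, against 15.9%). Without the term edgeR called 0 and 0% in both, with 11 of the 41 for sh902 (26.8%, against 15.8% of all genes) and 5 for sh900 (12.2%, against 14.7%) at an unadjusted p under 0.05. In that setting limma-voom called 0, and DESeq2 called Kdm1a for sh902 alone. The counts of separate groups also moved without the 30 August control, where sh902 lay fully below shNT for 21 of the 41 and fully above for 7, against 26.8% and 25.9% of all genes, and sh900 fully below for 14 and above for 6, against 22.5% and 21.6%. Without the sh900 library of 3 September, sh900 lay below shNT for 7 and above for 8, against 20.5% and 20% of all genes. Groups of fewer libraries separate more readily.

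The 41 genes are longer than most, and length moved with this contrast. Their median exon length was 7440 bases, against 4899.5 bases over 10370 genes at least as abundant as the least abundant of the 41. Over those genes in 5 bins of equal size by length, the median of sh902 minus shNT ran from 0.163 in the shortest to -0.055 in the longest, and that of sh902 minus sh900 from 0.044 to -0.056. Among the 8380 genes at least as abundant and as long as the lowest and shortest of the 41, 16.1% were fully lower with sh902 than with sh900, and 13.1% fully lower with sh902 than with shNT. In the same genes 12.1% were fully higher with sh902 than with sh900 and 11.6% fully higher with sh902 than with shNT. For sh900 against shNT 9.27% were fully lower and 10.3% fully higher, for the mean of both hairpins 3.23% and 3.97%, and for 3 September against 30 August 17.6% and 14.3%. The median for sh902 minus sh900 was -0.048 in these genes and -0.129 in the 41. The part of length in the counts on the 41 was not tested.

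Kdm5b and Kdm5c, JmjC demethylases of trimethylated H3K4, did not pass between the hairpins, although all their sh902 libraries lay below all their sh900 libraries. Kdm5c, an X-linked gene known in humans from intellectual disability, stood at 287, 304 and 286 CPM with sh902, at 408, 417 and 324 CPM with sh900, and at 305, 298 and 274 CPM with shNT. Its log2 fold change was -0.38 ± 0.13 for sh902 minus sh900 (SE, adjusted p = 0.128). Kdm5b was at -0.57 ± 0.21 (SE, adjusted p = 0.151), with 148 ± 7.77 CPM with sh902 and 218 ± 14.9 CPM with sh900 (SD, n = 3 each). Kdm5a differed by -0.11 (95% interval -0.47 to 0.25). Prdm2 was at -0.63 ± 0.17 (SE, adjusted p = 0.0744) and Kdm6b at -0.60 ± 0.21 (SE, adjusted p = 0.143).

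**Figure D4:**
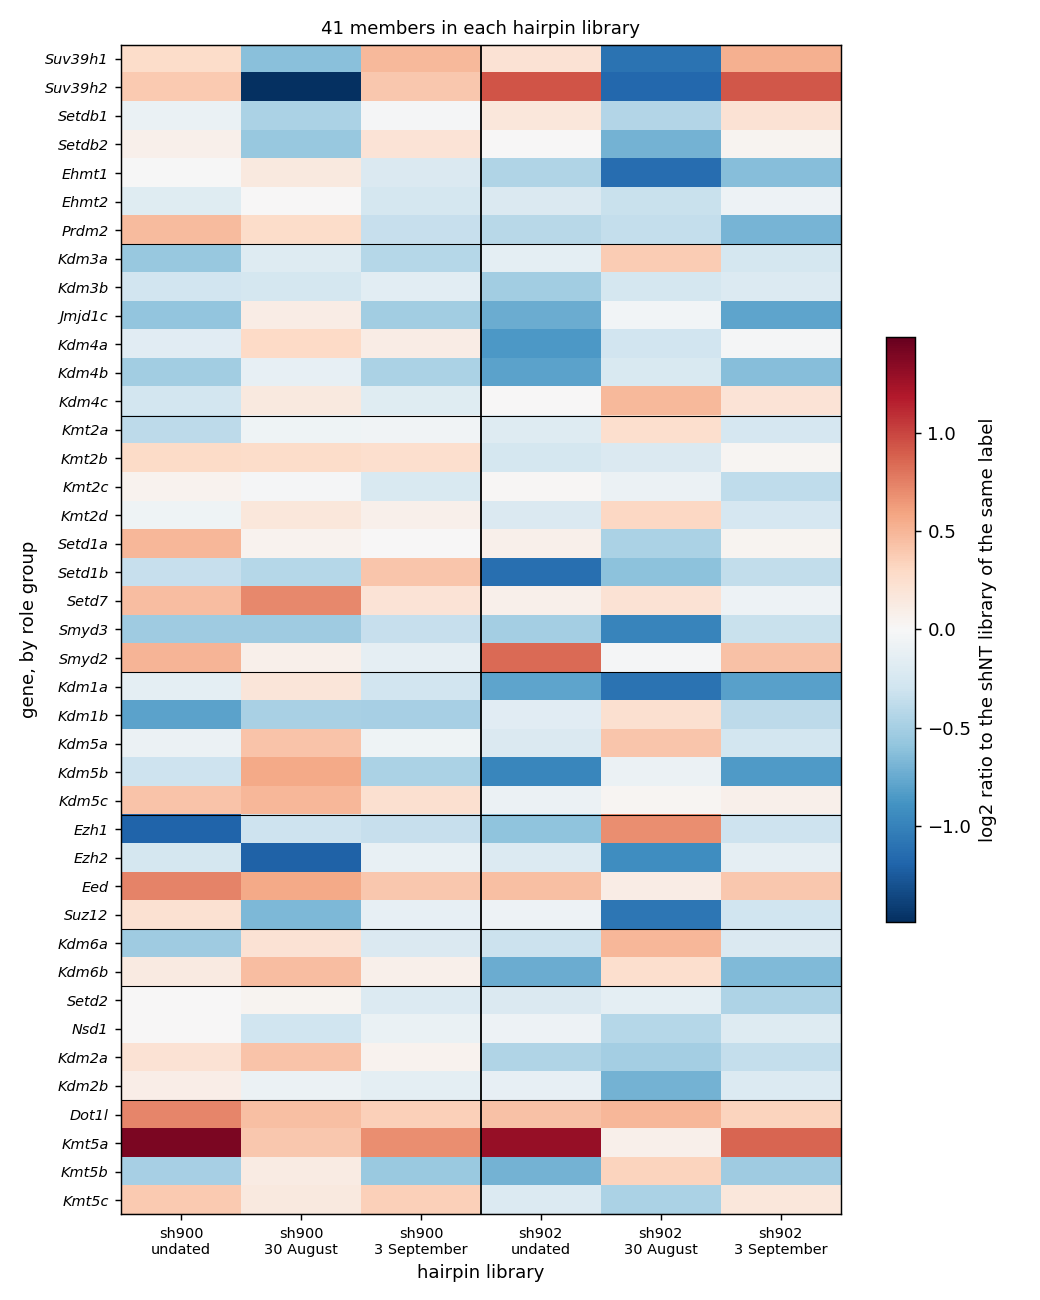
Log2 ratio of each hairpin library to the shNT library of the same date label (colour, log2 units) for the 41 genes (rows, by role group) in the 6 hairpin libraries (columns). Dot1l, Kmt5a and Eed are above 0 in all 6 columns, and Suv39h1 and Suv39h2 are below 0 in both 30 August columns and above 0 in the other 4.

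The third comparison, between date labels, gave more calls than the hairpins did. Averaged over the 3 hairpin groups, 3 September minus 30 August gave calls for 6 of the 41 genes (14.6%), against 20.5% of all genes (10.4% higher and 10.1% lower): Kdm4b and Ezh1 were higher at 3 September, and Eed, Dot1l, Kmt5a and Setd1a were lower. Kdm4b was higher by 0.77 ± 0.14 (SE, adjusted p = 0.00926), and this call held in 9 of 9 leave-one-out fits. Eed was lower, at -0.83 ± 0.14 (SE, adjusted p = 0.00669, held in 8 of 9), and Dot1l at -0.67 ± 0.13 (SE, adjusted p = 0.0103, held in 7 of 9). Kmt5a was at -0.83 ± 0.23 (SE, adjusted p = 0.0357, held in 3 of 9). Thus 4 genes called in a hairpin contrast also differed between labels, and in each the sign was opposite to that of the hairpins. Without the sh900 library of 3 September Kdm4b was the 1 gene called (2.44%, against 5.99% of all genes), and without the sh902 library of that label Kdm4b and Eed were (4.88%, against 10.3%). The labels do not explain the dates, so culture, day and preparation cannot be told apart.

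Setd1a and Ezh1 were called between labels and in no hairpin contrast. For Ezh1 the estimate for sh900 minus shNT was -0.63 (95% interval -1.26 to -0.004, adjusted p = 0.183) and that for the mean of both hairpins -0.36 (-0.90 to 0.18). SETD1A is an H3K4 methyltransferase of active promoters. Setd1a (chromosome 7, 127776670 to 127800122) stood at 31.6 CPM at 3 September and 57.4 CPM at 30 August with sh900, at 32.6 and 40.1 CPM with sh902, and at 31.7 and 55.5 CPM with shNT. The log2 fold change was -0.66 ± 0.17 (SE, adjusted p = 0.0281, held in 3 of 9 leave-one-out fits), and every 3 September library lay below every 30 August library. Ezh1 (chromosome 11, 101191115 to 101226463) stood at 18.4 CPM at 3 September and 7.13 CPM at 30 August with sh900, at 18.8 and 14.3 CPM with sh902, and at 23.3 and 8.84 CPM with shNT. It was higher at 3 September by 1.03 ± 0.28 (SE, adjusted p = 0.034, held in 2 of 9). The label groups also did not overlap for Kmt2c and Kmt5b, higher at 3 September, and Kmt2a and Smyd2, lower, which makes 4 of 41 higher (9.76%), against 16.1% of all genes, and 6 of 41 lower (14.6%), against 14.6% of all genes.

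Because the controls differed so much in proliferation genes, each of the 41 genes was set against the mean log2 CPM of 22 mitosis genes over the 9 libraries. That index was 6.25, 5.37 and 5.86 with sh900, 6.46, 5.67 and 6.37 with sh902, and 5.86, 7.35 and 3.40 with shNT, so the 30 August control was the highest and the 3 September control the lowest. Of 41 relations, 16 were positive and 25 negative. The permutations took the 9 libraries as exchangeable and did not allow for shared date labels or hairpin groups. By Pearson's r 0 of 41 had an adjusted p under 0.05, and by Spearman's rho 1 had, Suv39h2. For Suv39h2 r was 0.84 (exact permutation p = 0.00534, adjusted p = 0.193 over the 41) and rho 0.93 (exact permutation p = 0.00075, adjusted p = 0.0307), r was 0.87 without the 2 libraries farthest from the median index, and the order of the 3 libraries was the same within each of the 3 labels. Suv39h1 had an r of 0.78 (exact permutation p = 0.0157, adjusted p = 0.193) and a rho of 0.88 (exact permutation p = 0.00308, adjusted p = 0.0616), with r 0.63 without those 2 libraries. Kdm5a ran the other way, with an r of -0.80 (exact permutation p = 0.0173, adjusted p = 0.193), a rho of -0.87 (exact permutation p = 0.00451, adjusted p = 0.0616) and an r of -0.86 without those 2 libraries. Kmt5a, whose protein is known to be tied to the cell cycle, had an r of 0.54 (exact permutation p = 0.138, adjusted p = 0.514) and -0.01 without those 2 libraries. Its rho was 0.18 (exact permutation p = 0.644). Within the undated, 30 August and 3 September libraries its r was 0.914, -0.757 and 0.999, over 3 libraries each. No relation to the index was shown for Kmt5a.

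**Figure D5:**
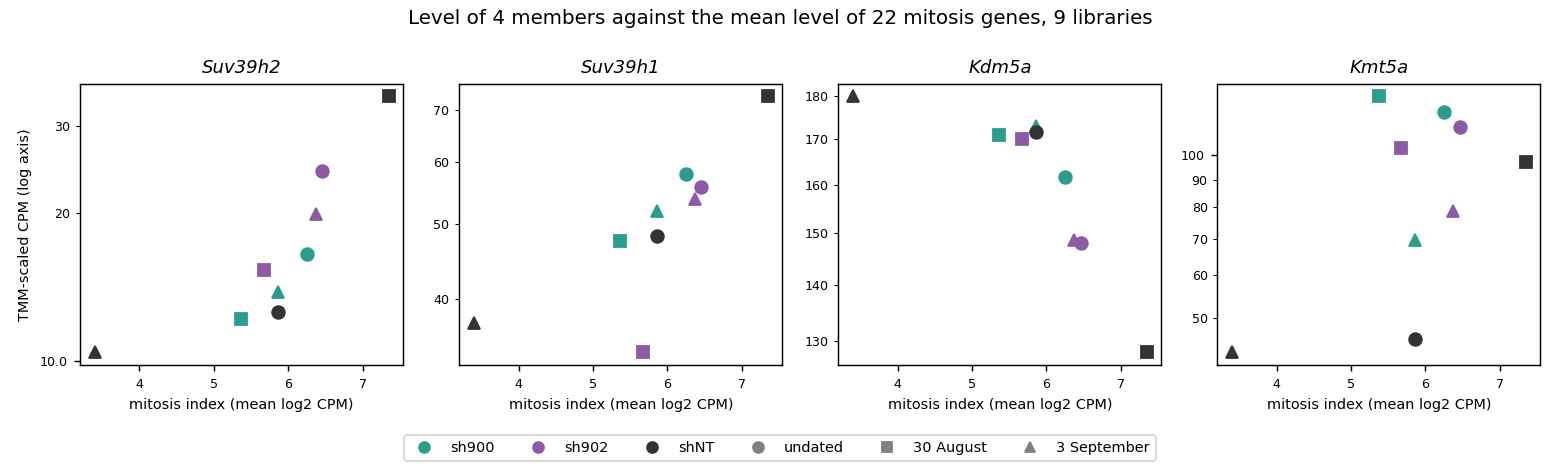
TMM-scaled CPM (y axis, log scale) of Suv39h2, Suv39h1, Kdm5a and Kmt5a against the mean log2 CPM of 22 mitosis genes (x axis) in the 9 libraries, with colour for the hairpin group and symbol for the date label. Suv39h2 climbs with the index and Kdm5a declines, while r of Kmt5a is 0.54 over the 9 libraries and -0.01 without the 2 farthest from the median index.

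Of 45 tested partner subunits of these enzymes 4 were called (8.89%), near the 11.7% of all genes. In the mean of both hairpins with the label term, 1 of 15 COMPASS subunits, which work with the KMT2 and SETD1 enzymes, was lower, and 0 were higher. That was Psip1, a chromatin reader that binds methylated H3K36, at 125, 81.5 and 152 CPM with sh900, 173, 129 and 202 CPM with sh902, and 211, 286 and 211 CPM with shNT (log2 fold change -0.78 ± 0.21, SE, adjusted p = 0.0493). Of 12 LSD1 complex partners 1 was lower, Rcor2, a CoREST scaffold of neural progenitors, at 41.7, 20.6 and 46.0 CPM with sh900, 34.1, 16.5 and 39.3 CPM with sh902, and 94.3, 46.5 and 73.7 CPM with shNT. Every hairpin library of Rcor2 lay below every control, at -1.16 ± 0.13 (SE, adjusted p = 0.00492). Unlike Kdm1a, Rcor2 was low with both hairpins, and sh902 minus sh900 was -0.28 (adjusted p = 0.334). Of 9 tested PRC2 accessory and shared subunits 1 was lower, Epop, at 4.37, 6.22 and 2.24 CPM with sh900, 4.96, 5.13 and 2.57 CPM with sh902, and 7.49, 12.6 and 8.24 CPM with shNT (-1.22 ± 0.23, SE, adjusted p = 0.0175). Of 9 tested partners of H3K9 methyltransferases 1 was higher, Cdyl, a reader of methylated H3K9 and H3K27, at 41.5, 46.7 and 31.8 CPM with sh900, 37.6, 54.6 and 32.0 CPM with sh902, and 27.8, 31.6 and 24.4 CPM with shNT (0.53 ± 0.12, SE, adjusted p = 0.0314). The medians of these lists were -0.06, 0.007, 0.028 and -0.054 for COMPASS, LSD1 partners, PRC2 accessory subunits and H3K9 partners, against -0.02 over all genes. Without the label term adjusted p for these 4 genes was 0.226 to 0.277.

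Of 35 tested SET and JmjC genes outside the 41, 3 were called (8.57%), near the 11.7% of all genes. Of 22 tested SET and PRDM genes 2 were higher, Smyd4 at 0.62 ± 0.15 (SE, adjusted p = 0.0381) and Prdm1, a transcriptional repressor, at 1.61 ± 0.40 (SE, adjusted p = 0.0395), and 0 were lower. Prdm1 stood at 14.4, 1.78 and 7.41 CPM with sh900, at 18.2, 2.39 and 8.46 CPM with sh902, and at 3.33, 1.65 and 1.64 CPM with shNT, so its 30 August libraries were close in all 3 groups. Of 13 tested other JmjC genes Phf2 was the 1 called. Its relatives Phf8 and Kdm7a were at 0.04 and 0.28 for the mean of both hairpins by edgeR with the label term, with adjusted p of 0.912 and 0.513. Kdm5d, the Y-linked relative of Kdm5c, had 0 counts in all 9 libraries. This was not particular to Kdm5d: the Y-linked genes Ddx3y and Eif2s3y also had 0 counts, and Uty at most 0.04 CPM. The X-linked Xist stood between 873.5 and 1409 CPM with sh900, 984.7 and 1154 CPM with sh902, and 1103 and 1689 CPM with shNT.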

How the data were processed

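Tools listed per the submitters' processing notes are RSEM, STAR 2.5.0a, Trimmomatic 0.36, cutadapt and FastQC, with the GRCm38 build. Annotation, strand setting and order of steps were not given in the sources used here. Values as deposited are an estimated count per gene, made by the authors, and all were whole numbers, so rounding changed 0 values. RSEM shares reads between similar genes by a model, so paralogs, overlapping genes and antisense pairs have less certain values. GENCODE M21 gave the symbols by Ensembl identifier (54079 of 54232 matched), and RPKM used its summed exon lengths.

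Libraries were grouped by treatment label. R 4.3.3 and edgeR 4.0.16 ran the main test: TMM scaling, edgeR's own expression filter and a quasi-likelihood F test on robust dispersion estimates (17602 genes, 99.9% of counts), all 9 libraries in 1 model of 3 groups, Benjamini-Hochberg adjustment over all genes, and a threshold of 0.05. The fit without the date label was the main one, and the fit with it as a replicate block the first alternative. Standard errors are the log2 fold change over the square root of F. Ratios to the same-label control use log2 CPM with a prior count of 2. The mitosis relations used exact permutations over pairings. DESeq2 1.42.0, limma 3.58.1 (voom), RLE factors, library size alone, other filters, only the compared groups, only the dated libraries and leaving out each library were alternatives. The alternatives for counts of separate groups and the comparison with long and abundant genes were chosen after seeing the data. Scripts were checked on simulated counts.

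The pairing rests on dates shared in the titles. Deviations from group means correlated at 0.40 to 0.63 within 30 August, 0.46 to 0.64 within 3 September, 0.08 to 0.40 among undated libraries and -0.66 to 0.30 across labels, so dated libraries were taken as paired and undated ones as possibly paired. No 2 libraries of a group agreed within sampling noise (lowest chi-square per degree of freedom 52.6).

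The 41 genes and all lists were chosen with earlier results of these data known. Library values are given for each gene called in a hairpin contrast, filled up to 12 by unadjusted p for the mean of both hairpins, and for the 6 with the smallest adjusted p between dates. From each further list up to 3 called genes are named. Values of Suv39h1, Suv39h2, Kdm5b, Kdm5c and Kdm5a, and paralog ratios, were added to describe their groups. The further lists were not tested as sets. Totals of 23212472 to 32392496 counts limit the precision of low genes, and PCR reads are not independent molecules.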

Additional observations from a re-analysis of the deposited data

Results flagged for a closer look

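The hairpins differed from each other for Kdm1a and Kdm2a in edgeR's fit with the replicate block. Kdm1a had a log2 fold change of -0.813 for sh902 minus sh900 (adjusted p = 0.0377) and was lower in 3 of 3 sh902 libraries than in any sh900 library. Kdm2a had -0.67 (adjusted p = 0.0403) with the same separation of libraries. Both are part of the direct comparison of the hairpins above, and over all fits run with the block the adjusted p ranged from 0.000956 to 0.323 for Kdm1a and from 0.0037 to 0.383 for Kdm2a, the highest from the 6 dated libraries alone.

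For 6 of the 41 genes both hairpin libraries of 1 date moved one way from the control of that date and both of the other date moved the opposite way. These differences between dates were not tested, and both hairpins of a date share 1 control. The share of all genes that did the same was not counted, so the 6 are not read as a trait of the 41. Suv39h2 was 0.40 (sh900) and 0.93 (sh902) above the control on the log2 scale at 3 September, and at -1.49 and -1.17 at 30 August, a difference of 1.995 between the means. Suv39h1 was at 0.48 and 0.53 at 3 September and at -0.62 and -1.10 at 30 August, a difference of 1.365. Setdb2 was at 0.20 and 0.04 at 3 September and at -0.57 and -0.71 at 30 August, a difference of 0.76. The other 3 genes ran in the opposite direction. Kmt5b was at -0.55 and -0.53 at 3 September and at 0.12 and 0.33 at 30 August, a difference of -0.765. Kdm5a was at -0.06 and -0.27 at 3 September and at 0.42 and 0.41 at 30 August, a difference of -0.58. Kdm6a was at -0.21 and -0.21 at 3 September and at 0.22 and 0.49 at 30 August, a difference of -0.565. The mitosis index of the 2 controls was 3.40 at 3 September and 7.35 at 30 August, and its part in these 6 genes was not tested.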

How the results depend on the processing

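Calls in the hairpin contrasts depended on the replicate block, the date label term. Counts below for other tools, factors and filters, the compared groups alone and the dated libraries alone stand without the share over all genes. A change in them therefore cannot be told from a change over the whole table. The count of the 41 genes called for the mean of both hairpins was 0 without it and, with it, 3 by edgeR, 3 with RLE factors, 4 without the low-count filter, 5 with library size alone, 5 with at least 1 CPM in 3 libraries, 5 by limma-voom and 6 by DESeq2. For sh900 these were 2, 2, 4, 1, 2, 3 and 5, and for sh902 3, 3, 4, 3, 3, 3 and 7, in the same order, with 1 for sh902 by DESeq2 without the block. For sh902 minus sh900 they were 2, 2, 5, 2, 2, 2 and 4, with 2 by DESeq2 without the block and 8 in the fit of both hairpins alone with the block. Fitted with shNT alone and the block, sh900 and sh902 each gave 0 calls. On the 6 dated libraries alone with the block every hairpin contrast gave 0 calls among the 41 and the contrast of dates 4, against 6 or 7 under the other tools and filters. Fitting only the groups compared is the same fit as the one given for the mean of both hairpins. With libraries left out in turn the calls were 0 to 8 for the mean, 0 to 9 for sh900 and 0 to 7 for sh902. They were 0 to 6 between hairpins and 1 to 8 between dates. The highest of each hairpin contrast came without the shNT library of 30 August. Over all genes the shares called in these fits moved too, from 1.42% to 19.9% for the mean and 0.482% to 15.9% for sh900. They ran from 0.247% to 20.6% for sh902, 0% to 10.9% between hairpins and 5.99% to 21.9% between dates. Phf2 was -1.28 without the block by edgeR, where it was not called (adjusted p = 0.182), -1.281 by DESeq2, where it was and, with it, -1.323 by edgeR, -1.324 with RLE factors, -1.269 without the filter, -1.338 with library size alone, -1.342 with 1 CPM, -1.295 by limma-voom and -1.324 by DESeq2; leave-one-out values were -1.549 to -1.10.

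Counts of genes with separate groups gave 1 in place of 2 lower for the mean with library size alone. They gave 1 in place of 0 higher for sh902 with library size alone and with RLE factors. The share over all genes was not computed with those factors. Leave-one-out ranges were 0 to 3 higher and 1 to 11 lower for the mean, and 3 to 8 and 3 to 14 for sh900. They were 1 to 7 and 11 to 21 for sh902, and 3 to 6 and 12 to 17 between hairpins. Over all genes the shares ran from 3.64% to 14.4% higher and 3.29% to 14.4% lower for the mean. For sh900 they ran from 8.85% to 21.6% and 8.57% to 22.5%. For sh902 they were 10.4% to 25.9% and 10.3% to 26.8%, and between hairpins 11% to 20.3% and 11.1% to 19.8%. Fewer libraries separate more readily. Spearman relations to the mitosis index passing numbered 2 with library size alone and 0 to 4 with libraries left out, and Pearson relations 0 to 1. Values for single genes under other settings were set against the main fit, for the hairpin contrasts the edgeR fit without the block. That fit called 0% of all genes, so a hairpin value that kept its side of the threshold stayed uncalled. By this count 471 kept direction and side, 94 newly passed, 25 no longer passed and 0 turned direction. The count does not show how often calls made with the block held, which the leave-one-out fits above give. The cause of these changes was not tested.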
